A study of Mus musculus with 28 samples.

Results

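The genes described are the 10 that carry out glycine cleavage, glycine production from threonine and sarcosine, creatine synthesis and glycine transport: Gldc, Amt, Gcsh, Dld, Gcat, Tdh, Sardh, Gatm, Gamt and Slc6a9. They were chosen by pathway, with earlier results of these data known. Symbols and Ensembl identifiers were used to find them among the 53342 gene identifiers of the count tables. The conditional knockout mice (cKO) carried Cre under the murine GFAP promoter (mGFAP-Cre), which is active in astrocytes, together with loxP/loxP alleles of the targeted gene. Control mice (Ctrl) were sex-matched littermates, loxP/loxP or loxP/+. Bulk RNA-Seq was performed on the cerebral cortex of 4 Ctrl and 4 cKO mice at P17 and of 4 Ctrl and 4 cKO mice at P24. TRAP-Seq was performed on the cortex of 3 Ctrl and 3 cKO mice at P24, with an Input library of the whole lysate and an immunoprecipitated (IP) library of RNA bound to EGFP-tagged ribosomes from each mouse. The tagged ribosomal protein EGFP-Rpl10a was driven by mGFAP-Cre, so that the Ctrl mice of this experiment must have carried the driver. They too are described as loxP/loxP or loxP/+, but their full genotype, with the driver, is not given in the sources used here. The bulk Ctrl mice are described without the driver. Each library came from 1 mouse.

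The glycine cleavage system is a mitochondrial enzyme complex that breaks glycine into carbon dioxide, ammonia and a single carbon unit carried by tetrahydrofolate, and in brain it is known mainly from astrocytes. Glycine is formed in mitochondria from threonine and from sarcosine, and it is consumed with arginine in the first step of creatine synthesis. The transporter GlyT1 clears glycine from the extracellular space around astrocytes.

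Levels are given as CPM, the counts of a gene per 1000000 counts of its library, with library sizes scaled by TMM factors (trimmed mean of M values) within each table. The bulk libraries held from 8855488 to 14575306 counts and the TRAP-Seq libraries from 18433087 to 27242445, and a count of 3, taken as the limit of detection for counting error only, came to between 0.106 and 0.340 CPM. All 10 astrocyte markers were enriched in IP over Input in cKO mice. The 8 neuron markers summed to between 2308 and 2786 CPM in IP libraries and to between 5469 and 6261 CPM in Input libraries, so that neuronal RNA was lower in the IP but not absent. The 6 oligodendrocyte markers summed to between 1469 and 2324 CPM in IP. Some Ctrl libraries stood apart in 7 olfactory bulb genes. This list was taken from the study's own list of P24 genes, so it is not independent of these data. These summed to 76.6 and 73.2 CPM in P24 bulk Ctrl 1 and 4 against 6.03 to 12.1 CPM in the other P24 bulk libraries, and to 33.3 and 18.3 CPM in the Input of Ctrl mice 1 and 3 against 6.23 to 7.40 CPM in the other Input libraries. At P17, Ctrl 4 and cKO 2 reached 24.2 and 18.4 CPM. Called changes of the 10 genes between genotypes in bulk and IP libraries are given with and without them. For the other comparisons of genotypes, the numbers of called genes without them are given at the end. For IP against Input in Ctrl mice no fit without them was possible.

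The sequences just upstream of the transcription start of the genes called in IP libraries are shown, because the results turn on these genes. They are RefSeq promoter windows on GRCm38.p6, read 5′ to 3′ on the strand of the gene and covering up to 150 bases before the start. Where the GENCODE gene model begins earlier, the window was shortened to the bases outside it. Capitals mark the letters of a GC box (GGGCGG) or a CCAAT box (CCAAT) on either strand.
Gatm, minus strand of chr2:122611304-122611427: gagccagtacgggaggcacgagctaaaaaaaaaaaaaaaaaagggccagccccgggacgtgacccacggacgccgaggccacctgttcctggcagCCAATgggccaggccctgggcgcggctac
Gldc, minus strand of chr19:30175442-30175591: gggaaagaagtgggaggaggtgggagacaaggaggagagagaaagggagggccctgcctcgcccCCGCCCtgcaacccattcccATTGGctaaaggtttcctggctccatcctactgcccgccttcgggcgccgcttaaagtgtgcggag
Gcsh, minus strand of chr8:116993538-116993648: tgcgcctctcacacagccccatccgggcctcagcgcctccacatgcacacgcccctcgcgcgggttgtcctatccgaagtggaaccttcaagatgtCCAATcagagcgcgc
Gcat, plus strand of chr15:79030724-79030873: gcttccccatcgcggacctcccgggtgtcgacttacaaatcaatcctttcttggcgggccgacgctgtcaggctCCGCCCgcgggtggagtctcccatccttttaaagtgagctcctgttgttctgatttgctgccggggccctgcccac

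Promoter windows were found for 9 of the 10 genes, 11 windows in all, since Slc6a9 has 3. In the full windows of 150 bases, a CCAAT box stood once before Gatm, Gldc, Gcsh and Dld. A GC box stood once before Gldc, Amt, Gcsh and Gcat, 3 times before Gamt and 2 times before the first start of Slc6a9. Of all 32851 mouse windows of this length, 28.6% hold a GC box and 24.5% a CCAAT box. The letters TGATGNAA, which are bound by ATF4 and C/EBP proteins in genes of the amino acid response, occur in 2.23% of all windows and in none of the 11 windows of these genes. A match is a match of letters only, and binding was not measured.

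The levels of the 10 genes differed widely. Per kilobase of exon, the order in the IP libraries of Ctrl mice was led by Gcsh, the lipoyl-carrying H protein of glycine cleavage, at 83.9 ± 0.865 CPM per kilobase, followed by Dld, the dihydrolipoamide dehydrogenase that the cleavage system shares with other mitochondrial complexes, at 40.2 ± 2.26. Gatm, which makes guanidinoacetate from arginine and glycine, followed at 34.3 ± 3.73. Amt, the aminomethyltransferase or T protein, stood at 16.8 ± 0.705 and Gamt, which methylates guanidinoacetate to creatine, at 16.5 ± 1.37 CPM per kilobase, a difference smaller than their SD. Gldc, the glycine decarboxylase or P protein, stood at 10.9 ± 0.0857, and Gcat, which splits the threonine product aminoketobutyrate into glycine and acetyl-CoA, at 10.1 ± 0.652, Sardh, the sarcosine dehydrogenase, at 8.62 ± 0.331, and Slc6a9, the glycine transporter GlyT1, at 6.37 ± 0.418 CPM per kilobase (SD, n = 3). In P24 bulk cortex of Ctrl mice, Gcsh, Gatm, Dld and Slc6a9 lay closer together, at 13.8 ± 0.907, 13.7 ± 0.827, 12.9 ± 0.643 and 12.1 ± 1.30 CPM per kilobase, and neighbours in that order were within 1 SD of each other. Lower in the same libraries stood Amt at 7.31 ± 0.665, Gamt at 7.19 ± 1.36, Gldc at 3.89 ± 0.255, Sardh at 2.08 ± 0.0733 and Gcat at 1.91 ± 0.159 CPM per kilobase (SD, n = 4). The order at the bottom of the list thus differed between whole cortex and IP, where Slc6a9 was the lowest of the 10 genes apart from Tdh.

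Tdh, the threonine dehydrogenase that supplies Gcat in most mammals, was at or near the limit of detection. Its level was at most 0.340 CPM in any of the 28 libraries. It had from 0 to 3 counts in every bulk library, from 1 to 5 in the Input libraries and from 4 to 9 in the IP libraries. It passed the filter on low counts in no comparison, so that 9 of the 10 genes were tested, and no fold change is given for it. An antisense gene, Gm17232, overlaps Tdh, and the strand setting of the counting is not given in the sources used here.

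**Figure D1:**
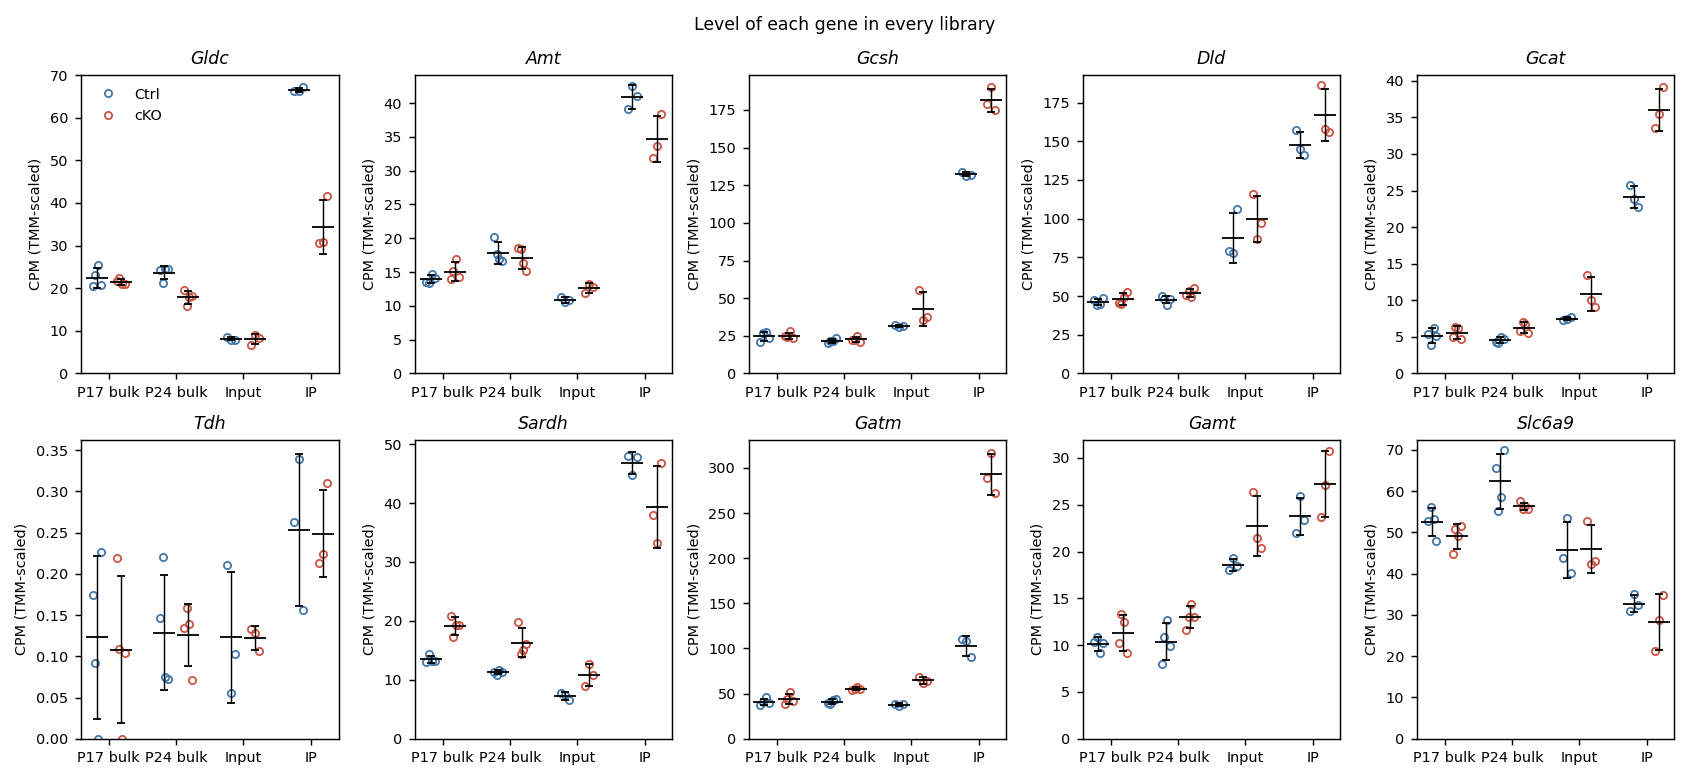
Level of each of the 10 genes in every library, in TMM-scaled CPM on a linear axis that starts at 0, for P17 bulk, P24 bulk, Input and IP libraries of Ctrl mice (blue) and cKO mice (red). Circles are single mice and bars the mean ± SD. All 3 cKO mice are above all 3 Ctrl mice for Gatm in IP (272 to 317 against 90.1 to 111 CPM) and below them for Gldc (30.7 to 41.6 against 66.2 to 67.1 CPM).

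IP was compared with Input to ask which of these transcripts were enriched on the ribosomes of the tagged cells. The main fits had no block for the mouse, so that the Input and IP libraries of a mouse were treated as independent. In Ctrl mice, all 9 tested genes passed the test, where 71.0% of all genes tested did so in either direction. Enrichment over Input was found for 8 of the 9, against 35.3% of all genes. Gldc was the most enriched, with 8.51, 7.90 and 7.91 CPM in the Input and 66.2, 66.3 and 67.1 CPM in the IP of Ctrl mice 1, 2 and 3. Its log2 fold change was 3.02 ± 0.10 (SE, edgeR quasi-likelihood test, adjusted p = 1.14e-09). Sardh, the enzyme that turns sarcosine into glycine, had 7.71, 7.45 and 6.52 CPM in the Input and 47.9, 44.7 and 47.8 CPM in the IP, with a log2 fold change of 2.68 ± 0.12 (SE). The other subunits of glycine cleavage were enriched unequally: the log2 fold change was 2.05 ± 0.09 for Gcsh, 1.90 ± 0.10 for Amt and 0.75 ± 0.12 for Dld (SE). Gcat was enriched by 1.68 ± 0.11 and Gatm by 1.43 ± 0.10 on the log2 scale (SE).

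Both remaining genes differed less between the fractions, and in opposite directions. Gamt, the second enzyme of creatine synthesis, had 18, 19.3 and 18.5 CPM in the Input and 22.0, 25.9 and 23.4 CPM in the IP. These groups did not overlap, and the log2 fold change was 0.34 ± 0.11 (SE, edgeR adjusted p = 0.0135). The call for Gamt was lost without the Input library of Ctrl mouse 1 (adjusted p = 0.062). Slc6a9 was the only one of the 9 genes that was lower in the IP, with 43.9, 53.4 and 40.2 CPM in the Input and 30.9, 35.1 and 32.3 CPM in the IP (log2 fold change −0.50 ± 0.12, SE, adjusted p = 0.00365). B4galt2, which overlaps Slc6a9 in the annotation, was lower in the IP as well, with a log2 fold change of −1.17 ± 0.11 (SE), and its part in the value of Slc6a9 was not tested. Ccdc24 and Gm17114, which were fitted beside B4galt2, were not called, with log2 fold changes of 0.40 ± 0.20 and 0.09 ± 0.18 (SE).

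In cKO mice the same comparison called 8 of the 9 genes, where 56.3% of all genes tested were called, and 7 were enriched in the IP, against 27.8% of all genes. Gatm, Gldc and Gcsh had the highest estimates. Gatm had 68.3, 61.4 and 64.2 CPM in the Input and 289, 317 and 272 CPM in the IP of cKO mice 1, 2 and 3 (log2 fold change 2.16 ± 0.15, SE, edgeR adjusted p = 1.33e-05). The log2 fold changes of Gldc and Gcsh were 2.08 ± 0.20 and 2.08 ± 0.19 (SE). The 3 estimates differed by less than 1 SE, and their order changed when single libraries were left out: Gcsh was the highest without the Input library of cKO mouse 1 (2.30), and Gldc without the IP or the Input library of cKO mouse 2 (2.18 in both). Sardh was enriched by 1.84 ± 0.20, Gcat by 1.72 ± 0.18, Amt by 1.44 ± 0.15 and Dld by 0.73 ± 0.16 on the log2 scale (SE). Slc6a9 was again lower in the IP, by −0.71 ± 0.20 (SE), a call that was lost without the IP library of cKO mouse 1 or 2 (adjusted p = 0.0553 and 0.0568). Gamt did not pass the test, with a log2 fold change of 0.25 ± 0.16 (SE, adjusted p = 0.224), and it was called without the Input library of cKO mouse 1 (adjusted p = 0.0368).

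**Figure D2:**
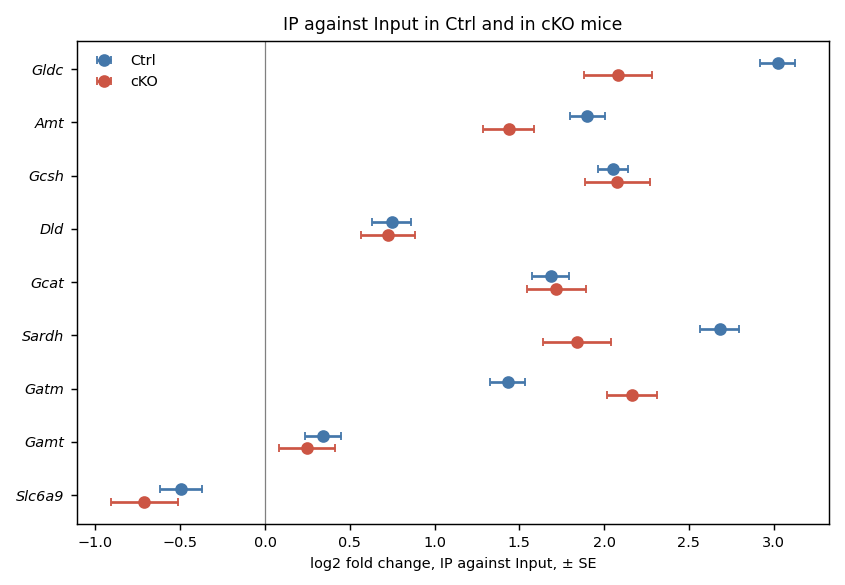
Log2 fold change of IP against Input for the 9 tested genes, in Ctrl mice (blue) and cKO mice (red). Points are the estimates of the edgeR fits and bars ± SE, with 3 mice per genotype. Gldc and Sardh have a lower and Gatm a higher value in cKO than in Ctrl mice, while Gcsh, Dld and Gcat have nearly the same value in both.

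IP libraries were then compared between genotypes to ask how the deletion changed the ribosome-bound RNA of the tagged cells. Gatm rose and Gldc fell, and no other gene of the 9 had an absolute log2 fold change above 0.9. Gcsh and Gcat rose to a smaller extent. In all, 4 of the 9 tested genes were called, where 20.0% of all genes tested were called, 2772 higher and 2010 lower. With library sizes alone in place of TMM factors, the median log2 fold change of all genes moved from −0.02 to −0.13 and the calls became 2002 higher and 3529 lower, while these 4 remained called and Amt, at −0.34, was called as well (adjusted p = 0.0403). The groups did not overlap for 5 of the 9, against 37.7% of all genes. The median log2 fold change of the 9 was 0.18, beside −0.02 for all genes tested.

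Gatm had 111, 108 and 90.1 CPM in the IP of Ctrl mice 1, 2 and 3 and 289, 317 and 272 CPM in cKO mice 1, 2 and 3. The lowest cKO library was well above the highest Ctrl library, and the means were 103 ± 11.2 and 292 ± 22.3 CPM (SD, n = 3). The fitted log2 fold change was 1.51 ± 0.11, or 2.86-fold (SE, edgeR quasi-likelihood test, adjusted p = 1.92e-05), and it lay between 1.43 and 1.57 when each library was left out in turn. The second enzyme of the same pathway, Gamt, had 22.0, 25.9 and 23.4 CPM in Ctrl and 23.7, 27.1 and 30.8 CPM in cKO mice. These groups overlapped, and its log2 fold change of 0.20 ± 0.12 (SE) did not pass the test (adjusted p = 0.28). The 2 steps of creatine synthesis were thus called unequally, although the difference between the 2 genes was not tested.

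Gldc had 66.2, 66.3 and 67.1 CPM in the IP of Ctrl mice and 30.7, 30.8 and 41.6 CPM in cKO mice. All 3 Ctrl libraries lay within 1 CPM of each other and above all cKO libraries, among which cKO 3 was the highest. The log2 fold change was −0.94 ± 0.13 (SE, adjusted p = 0.000794), a fitted ratio of 0.520. The H protein gene Gcsh moved in the other direction, with 134, 131 and 132 CPM in Ctrl and 179, 190 and 175 CPM in cKO mice. Its groups did not overlap, and the log2 fold change was 0.46 ± 0.09 (SE, adjusted p = 0.00457, and 0.0872 in a single fit of all TRAP-Seq libraries). Amt had 39.1, 42.5 and 41.1 CPM in Ctrl and 31.8, 33.7 and 38.4 CPM in cKO mice, so that the groups did not overlap, but the log2 fold change of −0.23 ± 0.10 (SE) did not pass the test (adjusted p = 0.146). Dld, the shared subunit, had 157, 145 and 141 CPM in Ctrl and 186, 158 and 156 CPM in cKO mice (log2 fold change 0.18 ± 0.10, SE, adjusted p = 0.239). The 4 genes of glycine cleavage therefore included 1 that fell, 1 that rose and 2 that did not pass the test, with a median log2 fold change of −0.03.

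Of the glycine-producing enzymes, Gcat had 25.8, 23.8 and 22.8 CPM in Ctrl and 33.5, 35.5 and 39.1 CPM in cKO mice. The groups did not overlap, and Gcat rose by 0.59 ± 0.10 on the log2 scale (SE, adjusted p = 0.00344). Sardh had 47.9, 44.7 and 47.8 CPM in Ctrl and 38.0, 33.2 and 46.8 CPM in cKO mice. The library of cKO mouse 3 fell within the Ctrl range, and the log2 fold change of −0.24 ± 0.13 (SE) did not pass the test (adjusted p = 0.205). Without that library it reached −0.39 with an adjusted p of 0.0315. Slc6a9 had 30.9, 35.1 and 32.3 CPM in Ctrl and 21.3, 28.8 and 34.8 CPM in cKO mice, overlapping groups with a log2 fold change of −0.20 ± 0.16 (SE, adjusted p = 0.413).

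Without the IP libraries of Ctrl mice 1 and 3, which were high in olfactory bulb genes, the log2 fold changes of Gatm and Gldc were 1.44 and −0.95 and both remained called (adjusted p = 0.00314 and 0.0355). Those of Gcsh and Gcat were 0.47 and 0.60 and were no longer called (adjusted p = 0.196 and 0.127), with a single Ctrl library left. Astrocyte markers summed to between 12899 and 16884 CPM in Ctrl and between 12588 and 17135 CPM in cKO IP libraries, and of these 10 markers 1, Gfap, was called higher and 2, Slc1a2 and Slc1a3, were called lower. Of the 8 neuron markers 2 were called lower, with a median log2 fold change of −0.23. The part of these differences in the values above was not tested.

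The Input libraries of the same mice held whole cortical RNA, in which fewer cells of a type and less RNA per cell cannot be told apart. None of the 9 tested genes passed the edgeR quasi-likelihood test, which called 0.109% of all genes tested. Of the 9, 3 had an unadjusted p under 0.05, the smallest being 0.000324 for Gatm, and DESeq2 and edgeR's likelihood ratio test each called 1. Gatm had 38.7, 35.9 and 38.9 CPM in Ctrl and 68.3, 61.4 and 64.2 CPM in cKO mice. All cKO libraries were higher, with a log2 fold change of 0.77 ± 0.14 (SE, adjusted p = 0.141). The gene called by both was Gatm, with adjusted p-values of 0.000276 and 0.0025, and the quasi-likelihood test called it without the Input library of cKO mouse 1 (0.0137) and in a single fit of all TRAP-Seq libraries (0.00985). Over all alternatives its adjusted p reached 1. For 6 of the 9 genes the groups did not overlap, with every cKO library above every Ctrl library, where 11.9% of all genes had groups that did not overlap and 6.59% had all cKO libraries above.

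The other genes with separated Input groups were Sardh, Gcat, Gcsh, Gamt and Amt. Sardh had 7.71, 7.45 and 6.52 CPM in Ctrl and 9.02, 12.7 and 10.8 CPM in cKO mice (log2 fold change 0.58 ± 0.19, SE, edgeR adjusted p = 0.812). Gcat had 7.25, 7.45 and 7.65 CPM in Ctrl and 13.5, 10.1 and 9.07 CPM in cKO mice, with a log2 fold change of 0.55 ± 0.19 (SE). Over all genes, Input library cKO 1 differed more from the other cKO Input libraries than these did from each other. It was the highest of the 6 for Gcat, Gcsh, Gamt, Dld and Gatm. Gldc, in contrast to its IP value, had 8.51, 7.90 and 7.91 CPM in Ctrl and 6.75, 8.97 and 8.32 CPM in cKO Input (log2 fold change −0.01 ± 0.18, SE). Astrocyte markers summed to between 1172 and 1411 CPM in the Ctrl Input and to between 1903 and 2432 CPM in the cKO Input, with a median log2 fold change of 0.79 over the 10 genes, while the neuron markers had a median of 0.03. The part of the astrocyte RNA share in the Input values was not tested.

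The interaction of fraction and genotype tested whether the change in IP differed from that in Input. It called none of the 9 genes and 0.0582% of all genes tested, 10 higher and 5 lower, or 5 higher and 7 lower with library sizes alone. Gldc had an interaction of −0.94 ± 0.21 (SE, edgeR adjusted p = 0.133), Sardh of −0.83 ± 0.22 (SE, adjusted p = 0.206) and Gatm of 0.73 ± 0.17 (SE, adjusted p = 0.148) on the log2 scale. Their unadjusted p-values were 0.0005, 0.0021 and 0.000731, and 4 of the 9 genes had one under 0.05. The edgeR likelihood ratio test called Gldc and Gatm. DESeq2 called all 3, with adjusted p-values of 0.00886, 0.0496 and 0.00185, and the quasi-likelihood test without the Input library of cKO mouse 1 also called all 3, with 0.0186, 0.0282 and 0.0245, and over all alternatives each of the 3 reached an adjusted p of 1. With the mouse as a block, since Input and IP come from the same animals, the test called 6 genes of the whole table in place of 15 and none of these. For Gcsh, Dld and Gcat the interaction was 0.02 ± 0.21, −0.02 ± 0.22 and 0.03 ± 0.21 (SE).

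**Figure D3:**
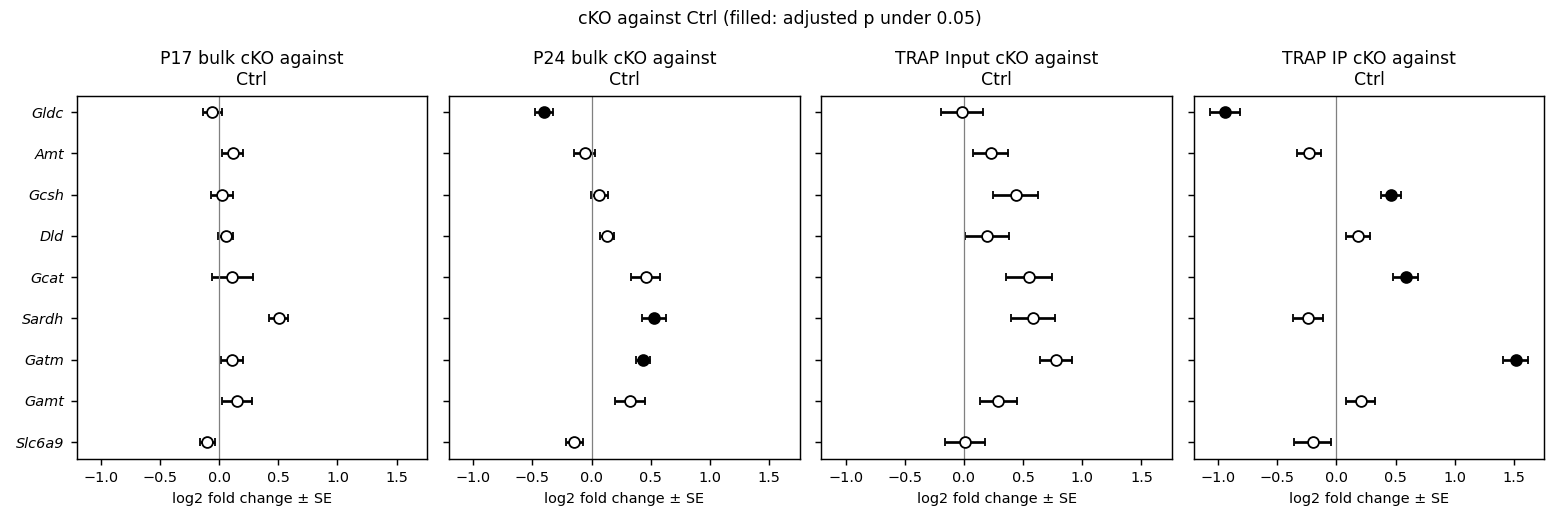
Log2 fold change of cKO against Ctrl for the 9 tested genes in P17 bulk and P24 bulk libraries (4 against 4 mice) and in Input and IP libraries (3 against 3 mice). Points are edgeR estimates, bars ± SE, and filled points have an adjusted p under 0.05. Gatm lies above 0 in all 4 panels, at 0.11, 0.43, 0.77 and 1.51, and Gldc lies at −0.06, −0.40, −0.01 and −0.94.

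P24 bulk cortex of other mice was compared in the same way. Gatm and Sardh rose and Gldc fell. These 3 of the 9 tested genes were called, where 1.72% of all genes tested were called. The groups did not overlap for 4 of the 9, the fourth being Gcat, against 7.67% of all genes. The median log2 fold change of the 9 was 0.13, beside 0.00 for all genes.

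Gatm had 39.8, 38.4, 42.5 and 43.8 CPM in Ctrl mice 1 to 4 and 54.2, 55.0, 57.3 and 55.6 CPM in cKO mice 1 to 4. Every cKO library was higher than every Ctrl library, with a log2 fold change of 0.43 ± 0.06 (SE, edgeR quasi-likelihood test, adjusted p = 0.00195). Leaving out each library in turn gave adjusted p-values between 0.000424 and 0.0102, and leaving out Ctrl 1 and 4, high in olfactory bulb genes, gave 0.46 with an adjusted p of 0.029. Gamt had 7.99, 10.9, 12.7 and 9.95 CPM in Ctrl and 11.6, 13, 14.4 and 13 CPM in cKO mice. Its groups overlapped through Ctrl 3, and the log2 fold change was 0.33 ± 0.13 (SE, adjusted p = 0.292).

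Sardh had 11.3, 10.8, 11.7 and 11.4 CPM in Ctrl and 19.8, 14.4, 15 and 16 CPM in cKO mice. The groups did not overlap and cKO 1 was the highest, with a log2 fold change of 0.53 ± 0.10 (SE, adjusted p = 0.0234). This call was lost in 5 of the 8 fits that left out 1 library (all 4 Ctrl libraries and cKO 4), with adjusted p-values up to 0.0765 and a log2 fold change of 0.42 to 0.58 over all 8. Without Ctrl 1 and 4 together it was 0.53 with an adjusted p of 0.189. The antisense gene Sardhos overlaps Sardh and had a log2 fold change of 0.40 ± 0.13 (SE, adjusted p = 0.209). Gcat had 4.32, 4.18, 5.01 and 4.72 CPM in Ctrl and 5.85, 7.06, 6.73 and 5.49 CPM in cKO mice. Although every cKO library was higher, the log2 fold change of 0.46 ± 0.12 (SE) did not pass the test (adjusted p = 0.104, and 0.0451 by edgeR's likelihood ratio test).

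Gldc had 24.3, 21.3, 24.5 and 24.6 CPM in Ctrl and 19.6, 15.9, 18 and 18.1 CPM in cKO mice. Ctrl 2 was the lowest Ctrl library and was still above cKO 1, the highest of the cKO libraries. The log2 fold change was −0.40 ± 0.08 (SE, adjusted p = 0.0187), a fitted ratio of 0.757. This call was lost in 6 of the 8 fits that left out 1 library (all but those without cKO 1 or Ctrl 2), with adjusted p-values up to 0.0647 and log2 fold changes from −0.45 to −0.35, and the value without Ctrl 1 and 4 was −0.35 (adjusted p = 0.212). The remaining subunits showed no called change: Amt had a log2 fold change of −0.06 ± 0.09, Gcsh of 0.07 ± 0.07 and Dld of 0.13 ± 0.06 (SE). Slc6a9 ranged from 55.2 to 70.0 CPM in Ctrl and from 55.7 to 57.5 CPM in cKO mice, with a log2 fold change of −0.15 ± 0.07 (SE, adjusted p = 0.417). In the same libraries the astrocyte markers were mixed: of 10, 3 were called higher (Gfap, Aqp4 and Aldh1l1) and 3 lower (Slc1a2, Slc1a3 and S100b), and their sum lay between 4702 and 5303 CPM in Ctrl and between 5107 and 5281 CPM in cKO mice. The part of these differences in the values above was not tested.

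In P17 bulk cortex none of the 9 genes passed the test. Fitted without a replicate block, it called 0.0943% of all genes tested. A single gene, Sardh, had an unadjusted p under 0.05, and it was called by DESeq2 and by edgeR's likelihood ratio test. The groups did not overlap for 1 of the 9, Sardh, against 2.83% of all genes. Sardh had 13.1, 14.4, 13.2 and 13.2 CPM in Ctrl and 20.8, 17.2, 19.3 and 19.3 CPM in cKO mice. Its log2 fold change of 0.50 ± 0.08 (SE) had an adjusted p of 0.0532 by edgeR's quasi-likelihood test. Same-numbered P17 libraries deviated together, and a fit that kept the number as a replicate block gave an adjusted p of 0.00765 at the same log2 fold change of 0.50. Adjusted p-values over all alternatives ran from 0.000477 to 0.2, with 0.0313 by DESeq2, 0.000477 by edgeR's likelihood ratio test and 0.0104 without a filter. Without Ctrl 4 and cKO 2, the libraries high in olfactory bulb genes, the log2 fold change was 0.54 with an adjusted p of 0.189.

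The other 8 genes differed little at this age. Gatm had 37.9, 40.2, 46.0 and 39.2 CPM in Ctrl and 38.3, 43.7, 52.0 and 42.1 CPM in cKO mice, overlapping groups with a log2 fold change of 0.11 ± 0.09 (SE). Gldc had 20.4, 23.1, 25.5 and 20.8 CPM in Ctrl and 21.8, 22.4, 21.1 and 20.9 CPM in cKO mice, with a log2 fold change of −0.06 ± 0.08 (SE). The estimates of the remaining 6 ran from −0.10 for Slc6a9 to 0.15 for Gamt. The interaction of age and genotype in bulk cortex called none of the 9 and 0.047% of all genes tested. The unadjusted p was under 0.05 for 2 of them, and neither DESeq2 nor edgeR's likelihood ratio test called any. It was −0.35 ± 0.11 for Gldc (edgeR adjusted p = 0.541), 0.32 ± 0.11 for Gatm (adjusted p = 0.609) and 0.02 ± 0.13 for Sardh (SE), so that a difference of the Gatm and Gldc changes between P17 and P24 was not detectable after adjustment. The fits of each age were run on separate tables.

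The surrounding pathways were described with a list of 59 genes, of which 50 were tested in IP. Of the 50, 8 rose and 7 fell, where 11.6% of all genes rose and 8.42% fell, and their median log2 fold change was −0.04. Without the libraries of Ctrl mice 1 and 3, which leaves 1 Ctrl library, 2 of the 15 kept their calls, Mat2a and Grin3a, and a single fit of all TRAP-Seq libraries called 7. In the step from serine to glycine, both serine hydroxymethyltransferases rose. Shmt2, the mitochondrial form, had 20.1, 20.4 and 20.0 CPM in Ctrl and 26.1, 29.2 and 35.5 CPM in cKO IP libraries (log2 fold change 0.60 ± 0.12, SE, edgeR adjusted p = 0.00738), and Shmt1, the cytosolic form, had a log2 fold change of 0.51 ± 0.16 (SE), a call that was lost in 5 of the 6 fits without 1 library (all but the one without Ctrl 2) and with library sizes alone (adjusted p = 0.105). Sds, a serine and threonine dehydratase, fell by 1.64 on the log2 scale from at most 1.60 CPM, or by 1.06 without Ctrl 1 and 3, and lost its call without Ctrl 3 (adjusted p = 0.0504). Among enzymes from choline to sarcosine, which lie upstream of Sardh, Chdh, the choline dehydrogenase, fell by 0.83 on the log2 scale. Aldh7a1, the betaine aldehyde dehydrogenase, fell by 0.56, a call that was lost without cKO 1, cKO 2 or Ctrl 3 (adjusted p up to 0.0882). Dmgdh, of the same steps, did not pass the test. Nor did Pipox, which was listed with them but acts on sarcosine itself, as Sardh does.

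Genes that feed and use creatine synthesis moved together with Gatm in part. Mat2a, which makes the methyl donor S-adenosylmethionine that Gamt uses, had 210, 218 and 208 CPM in Ctrl and 482, 397 and 373 CPM in cKO IP libraries. All cKO libraries were higher, with a log2 fold change of 0.98 ± 0.11 (SE, edgeR adjusted p = 0.000303). Ass1, the argininosuccinate synthase of arginine formation, rose by 0.74 ± 0.11 (SE), and Slc6a8, the creatine transporter, had 133, 128 and 139 CPM in Ctrl and 194, 246 and 241 CPM in cKO mice (log2 fold change 0.78 ± 0.11, SE, adjusted p = 0.00113). The other 5 of the 7 tested genes for arginine and methyl supply and the 3 tested creatine kinase genes did not pass the test.

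Carriers and receptors of glycine were mixed. Slc7a10, the exchanger asc-1 that moves glycine and D-serine, had 27.4, 53.0 and 49.7 CPM in Ctrl and 14.6, 20.8 and 32.0 CPM in cKO IP libraries. These groups overlapped, and the log2 fold change was −0.94 ± 0.28 (SE, adjusted p = 0.0373). DESeq2 did not call it (adjusted p = 0.0888), nor did the fits without cKO 1, cKO 2, Ctrl 2 or Ctrl 3, with adjusted p-values up to 0.134. Slc36a2, a proton-coupled carrier of glycine and proline, had a log2 fold change of −1.52, a call that was lost without cKO 1, cKO 2, Ctrl 1 or Ctrl 2 (adjusted p up to 0.0934). The neutral amino acid carriers Slc38a1 and Slc38a2 changed in opposite directions, by −0.58 ± 0.09 and 0.67 ± 0.11 on the log2 scale (SE). Grin3a, a glycine-binding subunit of NMDA receptors, fell by 0.59 on the log2 scale and was the only one called of 7 tested receptor genes. Gss, which uses glycine for glutathione, rose by 0.45 ± 0.11 (SE), a call lost at log2 fold changes of 0.40 to 0.45 without cKO 2, Ctrl 2 or Ctrl 3 (adjusted p up to 0.0779) and at 0.33 with library sizes alone (0.0627). For lipoic acid attachment, on which Gcsh depends, Lipt2 rose by 0.45 ± 0.11 (SE), a call lost without cKO 2, Ctrl 1 or Ctrl 3 (adjusted p up to 0.0833) and with library sizes alone (0.0633). The other 3 genes did not pass the test, nor did any of the 9 genes of the other complexes that contain Dld.

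**Figure D4:**
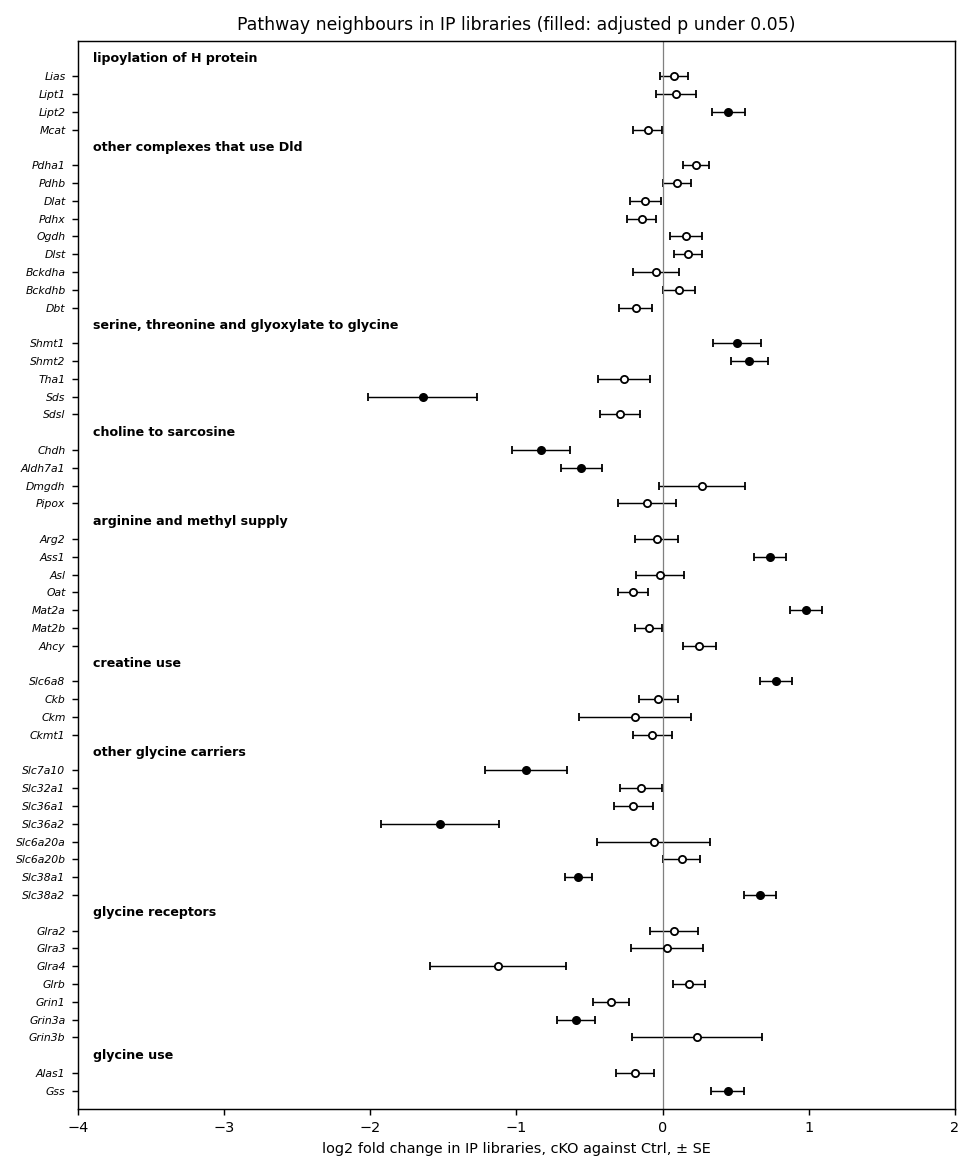
Log2 fold change of cKO against Ctrl in IP libraries for the 50 tested genes of the surrounding pathways, in 9 groups. Points are edgeR estimates with 3 mice per genotype, bars are ± SE, and filled points have an adjusted p under 0.05. Mat2a at 0.98 and Slc6a8 at 0.78 are the highest, and Sds at −1.64 and Slc36a2 at −1.52 are the lowest.

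In the P24 bulk libraries 4 of the 51 tested genes of these pathways were called, 3 higher and 1 lower, where 1.72% of all genes tested were called. DESeq2 called 7 of them, 4 higher and 3 lower. Shmt2 had 14.1, 14.9, 16.7 and 14.7 CPM in Ctrl and 19.3, 21.8, 20.3 and 19.6 CPM in cKO mice (log2 fold change 0.42 ± 0.07, SE, edgeR adjusted p = 0.0109). Mat2a rose by 0.44 ± 0.07 and Slc6a8 by 0.35 ± 0.07 on the log2 scale (SE). The call for Slc6a8 was lost in 6 of the 8 fits without 1 library (all but those without cKO 1 or cKO 3), with adjusted p-values up to 0.0901. Without Ctrl 1 and 4 together Shmt2 and Slc6a8 lost their calls (adjusted p = 0.164 and 0.221), and Mat2a and Slc7a10 did not. Slc7a10 had 23.0, 26.6, 22.4 and 22.8 CPM in Ctrl and 15.7, 13.9, 15.1 and 11.7 CPM in cKO mice, with no overlap and a log2 fold change of −0.75 ± 0.09 (SE, adjusted p = 0.0015). In the P17 bulk libraries none of 49 and in the Input libraries none of 50 tested genes of these pathways passed the test, nor were any called by DESeq2 or edgeR's likelihood ratio test. The unadjusted p was under 0.05 for 2 and 1 of them.

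The genes whose pattern over the 8 groups was most like that of each of the 9 were sought among 13285 genes, as the smallest root mean square difference between centred group means of log2 CPM. Gldc was most like Plpp3 (0.165) and Teddm2 (0.179), and Gatm was most like BC147527 (0.164) and Dap (0.205), the largest distances of the 9. Dld was most like Iscu, at a distance of 0.0324, and Slc6a9 most like Lrch4, at 0.0544. Sardh was most like its own antisense gene Sardhos, at 0.109, whose reads cannot be told apart from those of Sardh where the strand was not used. For Gcsh the nearest gene was Ppp1r14b (0.0756), for Amt Mtmr10 (0.0957), for Gcat 1810058I24Rik (0.0893) and for Gamt Mapkapk2 (0.0626).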

How the data were processed

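The authors mapped the reads with STAR in Galaxy to mm10 and deposited raw counts per Ensembl gene, without normalization, in 1 table per experiment. The counting tool, strand setting and annotation are not given in the sources used here, and only the names of the bulk tables carry the age. GENCODE M21 gave symbols and lengths for 53237 of 53342 identifiers. Tests used edgeR 4.0.16 under R 4.3.3 (TMM, filterByExpr with minimum count 10, quasi-likelihood test, two-sided, Benjamini-Hochberg adjusted p under 0.05). The study names edgeR but not its test. Each SE is the log2 fold change divided by the square root of F. Alternatives were DESeq2 1.42.0, edgeR's likelihood ratio test, other scalings and filters, replicate blocks, 1 fit of all libraries, and leaving out libraries. The pipeline was tested on simulated counts. Over 36 replicate pairs chi-square per degree of freedom was at least 2.79, so no library was counted as a duplicate. Input cKO 1 stood apart, at 80.4 and 85.5 with Input cKO 2 and 3, which stood at 8.71 with each other. Its TMM factor was 0.884. Same-numbered P17 libraries correlated at 0.179 to 0.420, with 8 of 8 closest to their own number. The main P17 fit nevertheless had no replicate block, and the fit with the block is given as an alternative. IP and Input pairs share the mouse by their labels, but the main fits of IP against Input had no block for the mouse. In Ctrl mice these pairs correlated at 0.0644 to 0.1, with 6 of 6 libraries closest to their own number. In cKO mice they correlated at −0.129 to 0.155, with 1 of 6 closest to its own number. P24 bulk and TRAP-Seq genotypes were likewise fitted without pairs. The lowest correlations of same-numbered libraries were 0.0366 in P24 bulk, −0.059 in Input and 0.0709 in IP. The genes and lists were chosen with earlier results of these data known. All 10 genes are named. From the surrounding lists, at most 15 called genes per comparison with mean log2 CPM of at least 1 are named, ordered by fold change, and all called genes of a group where at most 3 passed. The level of the targeted gene is not reported here.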

Additional observations from a re-analysis of the deposited data

Results flagged for a closer look

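In P24 bulk Ctrl mice, the library of Ctrl 2 had 21.3 CPM of Gldc, apart from the other 3 at 24.3 to 24.6 CPM, by Dixon's criterion for 4 samples. Without it the log2 fold change of Gldc remained negative and called. In P17 bulk Ctrl mice, Ctrl 2 had 14.4 CPM of Sardh, apart from the other 3 at 13.1 to 13.2 CPM. It was still below all cKO libraries. Chance alone marks about 1 in 20 groups, and 36 groups of 4 were examined.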

How the results depend on the processing

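The number of called genes moved with the method. In P24 bulk libraries it was 388, and it became 598 with DESeq2, 619 with edgeR's likelihood ratio test, 618 without a filter, and 216 to 950 when single libraries were left out. In P17 bulk libraries it was 20 and became 41, 61 and 55 under those 3 settings and 11 to 19 without single libraries. For IP it was 4782, 1684 in a single fit of all TRAP-Seq libraries and 2633 to 4810 without single libraries. For Input it was 26, 127 with DESeq2, 137 with the likelihood ratio test, 112 without a filter, 15 with 10 counts required in every library, 127 in the single fit and 4 to 112 without single libraries. For the interaction of fraction and genotype it was 15, and 284, 219 and 189 with DESeq2, the likelihood ratio test and no filter, and 3 to 432 without single libraries. For the interaction of age and genotype it was 11, and 54, 52 and 62 under the same 3, and 4 to 149 without single libraries. Of the 10 genes, the number called was 3 in P24 bulk (1 to 3 without single libraries) and 4 in IP (4 to 5). It was 0 in P17 bulk, and 1 with DESeq2, the likelihood ratio test or no filter. It was 0 in Input, and 1 with DESeq2, the likelihood ratio test or the single fit (0 to 1 without single libraries). It was 0 in the interaction of fraction and genotype, and 3, 2 and 1 with DESeq2, the likelihood ratio test and no filter (0 to 3 without single libraries).

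The replicate block gave 109 called genes in P17 bulk and 1 of the 10 genes (Sardh), 8 called genes in Input, 6 in the interaction of fraction and genotype and 55 in the interaction of age and genotype. It changed no other call of the 10 genes. Outside P17 the numbers were not shown to pair the genotypes: same-numbered libraries correlated at 0.0366 to 0.247 in P24 bulk, with 4 of 8 closest to their own number, at 0.0709 to 0.186 in IP (6 of 6, a hint from the data only) and at −0.059 to 0.125 in Input (3 of 6).

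Leaving out the libraries high in olfactory bulb genes was chosen after the data were seen. It left 101 called genes in P24 bulk, 12 in P17 bulk, 471 in IP, 0 in Input, 3 in the interaction of fraction and genotype and 6 in that of age and genotype, with 1 of the 10 genes called in P24 bulk and 2 in IP. These fits have fewer libraries. For IP against Input in Ctrl mice it gave no value, since 1 library per fraction was left.

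Of 1224 alternative log2 fold changes of single genes, 1140 kept direction and side of the threshold, 21 passed it newly, 19 no longer passed it and 44 changed sign. The 44 ran from −0.218 to 0.134 and were never called, and the cause was not tested. In Input, Gldc was 0.004 without a filter and 0.018 without the olfactory bulb libraries, and Slc6a9 was −0.032 with library sizes alone and −0.218 without those libraries. In the interaction of fraction and genotype, library sizes alone and no filter gave −0.032 and −0.018 for Gcsh and −0.023 and −0.003 for Gcat. In that of age and genotype, Sardh was −0.018 and Slc6a9 0.134 without the olfactory bulb libraries. Without single libraries, Amt ran from −0.1 to 0.006 in P24 bulk. In P17 bulk Gldc ran from −0.105 to 0.005, Gcsh from −0.049 to 0.077 and Gcat from −0.009 to 0.215. In Input Gldc ran from −0.098 to 0.093 and Slc6a9 from −0.099 to 0.135. In the interaction of fraction and genotype Gcsh ran from −0.112 to 0.248, Dld from −0.198 to 0.098, Gcat from −0.081 to 0.212 and Gamt from −0.197 to 0.026. In that of age and genotype Gcsh ran from −0.018 to 0.115, Sardh from −0.087 to 0.076 and Slc6a9 from −0.102 to 0.012. With 3 or 4 mice per group and Tdh at 0 to 9 counts, small changes of low genes were not detectable.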
